A study of Mus musculus with 6 samples.

Results

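The defensin genes were read out on the arrays by every non-control probe whose gene name starts with Defa or Defcr (alpha defensins) or with Defb (beta defensins). This gave 74 probes of 63 genes out of 39429 probes carrying 31791 gene names, and split into 24 probes of 19 alpha-defensin genes, none of them named Defcr, and 50 probes of 44 beta-defensin genes. Each of the 74 was printed as a single spot of 60 bases. The family was chosen by measured values, the signal on these same 6 arrays, because gene sets of alpha defensins and of defensins had scored higher in 2T-p190-B-/- than in 2T-WT when they were analysed before. Values of the 2T-p190-B-/- against 2T-WT contrast are therefore a description of the members, with no test.

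The study asked how p190-B, a GTPase-activating protein encoded by Arhgap5, affects hematopoietic stem cells (HSCs) after serial transplantation. C57BL/6J fetal liver cells of p190-B-/- embryos or their wild-type littermates went, with competitor bone marrow, into lethally irradiated CD45.1 congenic mice, and marrow of these recipients was passed on to secondary recipients (2T), so that both groups share irradiation, competitor cells and 2 rounds of transplantation. LSK-SLAM cells, a bone marrow population enriched for HSCs that carries c-Kit, Sca-1 and CD150 but neither lineage markers nor CD48, were sorted from 3 2T-WT and 3 2T-p190-B-/- samples, and their RNA was amplified, labelled with Cy3 and hybridised to 1-colour Agilent whole mouse arrays. The null allele is carried by every donor-derived cell and not by one cell type, and the study describes the cells as taken on 3 occasions from 3 2T mice of each group, without saying which mice gave the cells of which array, so the spread between arrays may be in part technical.

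Defensins are small cationic peptides with disulfide bonds that disrupt microbial membranes and also act on immune cells. In mice the alpha defensins, or cryptdins, are made by Paneth cells of the small intestine as inactive precursors that the metalloproteinase Mmp7 cleaves, whereas mouse neutrophils, unlike human ones, make no alpha defensins. Beta defensins are made by epithelia of skin, airway, gut and kidney, and a large part of the mouse family is expressed in the epididymis, where some members coat sperm. The alpha-defensin genes arose by recent duplications, which leaves probes of different genes with nearly the same bases.

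The probe sequences that were shared most closely are shown because they set which genes a probe value can be assigned to. Sequences and positions (build mm9) are those of the array annotation in the files, written 5′ to 3′, and capitals mark the bases that differ within the stretch that the probes of a set have in common. The first set lies early in the transcripts, in the precursor part of alpha defensins. Its probes share a stretch of 32 bases, of which 22 are the same in all 4, and they lie on the plus strand at chr8:22805553-22805612 (Defa-ps1, a pseudogene), chr8:22274401-22274460 (Defa-rs2), chr8:22224205-22224264 (Defa25) and chr8:22728711-22728770 (Defa26).
Defa-ps1 probe: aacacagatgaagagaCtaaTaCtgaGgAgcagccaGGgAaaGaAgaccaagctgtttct
Defa-rs2 probe: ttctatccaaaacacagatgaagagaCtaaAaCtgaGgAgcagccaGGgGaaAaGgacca
Defa25 probe: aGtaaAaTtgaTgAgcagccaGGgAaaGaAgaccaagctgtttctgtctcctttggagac
Defa26 probe: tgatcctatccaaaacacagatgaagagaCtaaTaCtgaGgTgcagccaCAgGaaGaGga

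The second set belongs to 3 defensin-related genes, which share the alpha-defensin precursor but encode a different cysteine-rich peptide. Their probes align over 60 bases, with 45 the same in all 3, and the files give them no genome position. A probe of a further gene, Defa-rs4, starts inside this stretch and shares 38 of 39 bases with the Defa-rs10 probe, and in its line the capital marks the base that differs from Defa-rs10.
Defa-rs10 probe: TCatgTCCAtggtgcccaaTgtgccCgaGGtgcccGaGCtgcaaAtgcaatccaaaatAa
Defa-rs12 probe: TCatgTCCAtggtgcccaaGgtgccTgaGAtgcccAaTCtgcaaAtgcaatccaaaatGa
Defa-rs7 probe: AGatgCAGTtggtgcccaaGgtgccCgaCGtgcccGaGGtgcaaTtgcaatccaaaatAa
Defa-rs4 probe: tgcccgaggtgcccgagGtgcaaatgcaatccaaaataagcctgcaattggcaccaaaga

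A pair of alpha-defensin genes and a pair of alpha-defensin pseudogenes make up the next sets. The Defa1 and Defa3 probes (chr8:22427899-22427958 for Defa3, no position given for Defa1) overlap by 56 bases and differ at 4 of them, and the probes of the pseudogenes Defa-ps16 (chr8:22485606-22485665) and Defa-ps17 (chr8:22587053-22587112) overlap by 54 bases and differ at 5. These 5 lie together at the end of the overlap. There the bases match after a shift of a single base, which the alignment without gaps did not allow.
Defa1 probe: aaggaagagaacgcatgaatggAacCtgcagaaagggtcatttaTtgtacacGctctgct
Defa3 probe: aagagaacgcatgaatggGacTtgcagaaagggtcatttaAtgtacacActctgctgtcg
Defa-ps16 probe: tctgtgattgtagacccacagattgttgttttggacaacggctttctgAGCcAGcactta
Defa-ps17 probe: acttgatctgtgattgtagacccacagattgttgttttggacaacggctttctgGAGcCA

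Among the beta defensins 1 pair came as close. The probes of Defb15 (chr8:23040417-23040476, minus strand) and Defb34 (chr8:19126406-19126465, plus strand) align over all 60 bases and differ at 6.
Defb15 probe: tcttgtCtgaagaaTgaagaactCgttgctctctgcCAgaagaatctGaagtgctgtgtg
Defb34 probe: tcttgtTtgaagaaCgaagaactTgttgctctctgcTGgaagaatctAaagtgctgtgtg

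In all, 13 of the 24 alpha-defensin probes had a probe of another member gene with at least 80% of bases the same over an overlap of at least 40 bases, and 16 did when probes with gene names outside the family were counted as partners. Only 2 of the 50 beta-defensin probes did, the pair above. Counting each group of linked probes once left 16 alpha and 49 beta sequences. Members are thus not replicates of a condition, and the alpha-defensin probes in particular are not independent of each other. In bulk RNA a smaller number of cells that express a gene and less RNA per cell cannot be told apart.

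Signal was taken as the background-subtracted processed signal of Feature Extraction, on a log2 scale relative to the 75th percentile of the same array, so that 0 is the signal that 75% of the array's probes stay below. A probe was called above background where the scanner software flagged its spot as well above background on that array. The 75th percentile itself lay between 53.9 and 227 signal units on the 2T-WT arrays and between 252 and 385 on the 2T-p190-B-/- arrays, with no saturated spot. Correlation was taken over the 24873 probes above background on at least 3 arrays and with a value on every array. It ran from 0.67 to 0.78 between arrays of different groups and from 0.70 to 0.80 within a group. The array with the highest share of probes above background was 2T-p190-B-/- replicate 1 (73.1%) and the one with the lowest was 2T-WT replicate 1 (48.4%). 2T-WT replicate 1 and 2T-p190-B-/- replicate 3 were each alone on a slide, and the other 4 arrays shared the remaining one. Arhgap5 itself has 1 probe, whose place relative to the deleted part is not given. It was above background on no 2T-WT array and on 1 2T-p190-B-/- array, so it offered no check of the genotypes.

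Defensin probes were above background in LSK-SLAM cells about as often as other probes, with alpha defensins seen more often than beta defensins. Of the 74 probes, 25 (33.8%) were above background on all 6 arrays and 10 (13.5%) on none, against 34.9% and 16.8% of all 39429 probes. The share on all 6 arrays was 50% for the alpha (12 of 24) and 26% for the beta defensins (13 of 50), and the share on none was 8.33% (2 probes, Defa4 and Defa-ps13) and 16% (8 probes). By gene, 10 of 19 alpha and 13 of 44 beta defensins had a probe above background on every array. Of these alpha defensins, Defa1, Defa-rs2, Defa-rs7, Defa-rs10 and Defa-rs12 matched no entry of the RefSeq gene table used to check names.

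Array by array, the number of alpha-defensin probes above background was 13, 17 and 13 of 24 in 2T-WT and 21, 17 and 15 in 2T-p190-B-/-. Beta-defensin probes numbered 19, 31 and 20 of 50 in 2T-WT and 39, 22 and 25 in 2T-p190-B-/-. Of all probes, 48.4%, 66.5% and 50.6% were above background in 2T-WT and 73.1%, 53.0% and 64.2% in 2T-p190-B-/-. The beta defensins and all probes put the 6 arrays in the same order, whereas more alpha defensins were seen on 2T-p190-B-/- replicate 2 than on replicate 3, the reverse of all probes. The share of alpha defensins exceeded that of all probes on 5 of the 6 arrays, and the share of beta defensins fell below it on 5 of the 6.

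**Figure D1:**
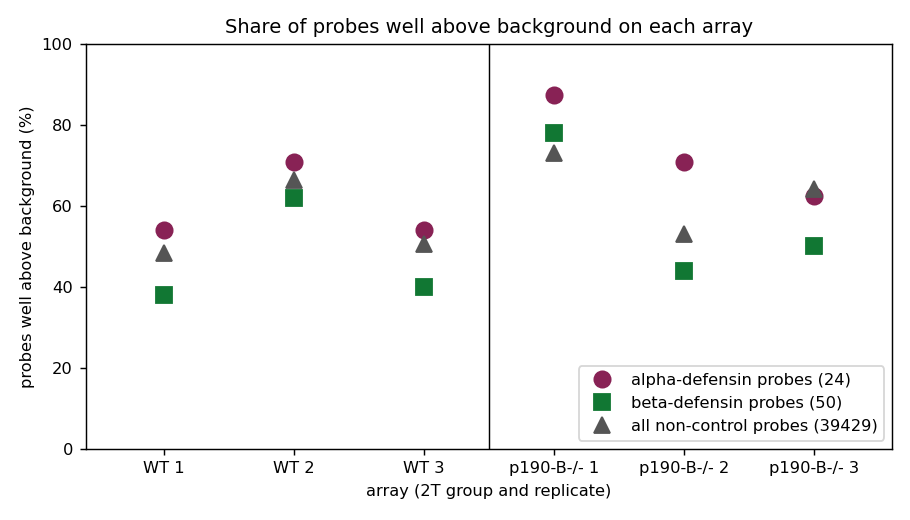
Share of probes flagged well above background (vertical axis, percent) on each of the 6 arrays (horizontal axis), for the 24 alpha-defensin probes (circles), the 50 beta-defensin probes (squares) and all 39429 non-control probes (triangles). All 3 shares were highest on 2T-p190-B-/- replicate 1, with 87.5%, 78% and 73.1%, and beta defensins lay lowest on the other 5 arrays.

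More members were seen in the knockout arrays alone than in the wild-type arrays alone. Of the 74 probes, 15 (20.3%) were above background on at least 1 2T-p190-B-/- array and on no 2T-WT array, which 11.0% of all probes were, and only Defb37 showed the opposite, which 4.53% of all probes did. Of these 15 probes, 9 were above background on a single array, which was replicate 1 for 7 beta defensins (Defb3, Defb8, Defb12, Defb13, Defb42, Defb44-ps and Defb48-ps), replicate 2 for Defa21 and replicate 3 for Defb40. The 75th percentiles of the arrays did not overlap between the groups, and the part of brightness in these counts was not tested. Brightness and detection did not put the arrays in the same order, since 2T-p190-B-/- replicate 2 was the second brightest array and only the fourth by its share of probes above background.

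Probe composition also went with detection. The median share of G and C bases was 38.3% in the 10 members above background on no array, 41.7% in the 39 seen on 1 to 5 arrays and 45% in the 25 seen on all 6, beside 35%, 41.7% and 45% over all probes of the array. Alpha-defensin probes had a median of 45% and beta-defensin probes of 41.7%. The part of base composition in the difference between the classes was not tested.

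**Figure D2:**
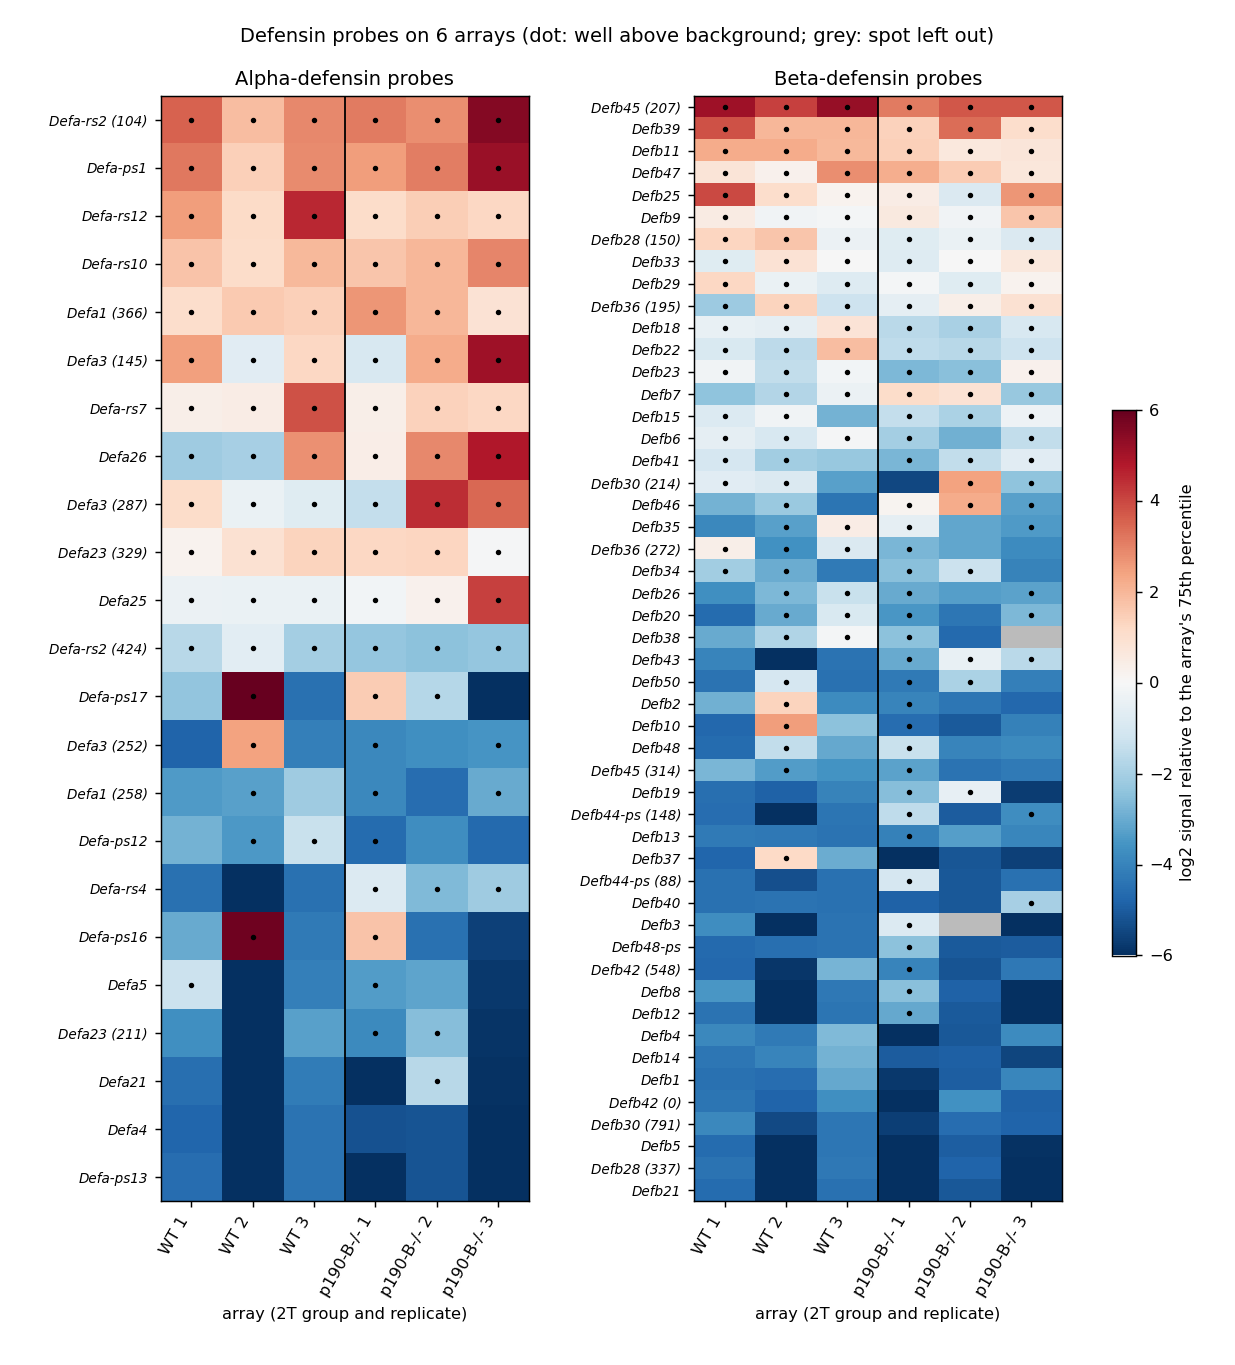
Log2 signal relative to the array's 75th percentile (colour, limited to -6 and 6) for 23 of the 24 alpha-defensin probes (left) and the 50 beta-defensin probes (right) on the 6 arrays, with a dot where a probe was well above background, grey where an outlier spot was left out, and the start of the probe in its transcript in brackets for genes with more than 1 probe. Rows are ordered by the number of arrays above background, and the last 2 alpha and the last 8 beta rows have no dot.

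Among the alpha defensins the 4 probes of the precursor group were above background on all 6 arrays and reached their highest value on the same array. In log2 signal, with the arrays given in replicate order here and below, Defa-ps1 read 3.17, 1.42 and 2.86 in 2T-WT and 2.51, 3.05 and 5.20 in 2T-p190-B-/-. The Defa-rs2 probe of this group read 3.52, 1.85 and 2.90 in 2T-WT and 3.10, 2.80 and 5.50 in 2T-p190-B-/-. Both were highest on 2T-p190-B-/- replicate 3 and lowest on 2T-WT replicate 2, and their groups overlapped.

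Defa25, a Paneth cell cryptdin gene, read log2 signals of -0.36, -0.41 and -0.39 in 2T-WT and -0.18, 0.27 and 4.11 in 2T-p190-B-/-. The 3 2T-WT values lay close together and below all 2T-p190-B-/- values, but 2 of the latter were near them and the difference of 1.79 between the means (standard error 1.14, 3 arrays per group) was carried by replicate 3 and came to 0.44 within the slide that held 2 arrays of each group. Defa26 had the widest spread of the group, with log2 signals of -2.13, -2.01 and 2.74 in 2T-WT and 0.39, 2.88 and 4.80 in 2T-p190-B-/-. Its 2T-WT replicate 3 was as high as 2T-p190-B-/- replicate 2, and the groups overlapped.

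The Defa3 gene, another Paneth cell cryptdin, was read by 3 probes at different places in the transcript, the last 2 of which overlap in part. Its probe at base 145 gave log2 signals of 2.45, -0.66 and 1.24 in 2T-WT and -0.98, 2.24 and 5.07 in 2T-p190-B-/-. The probe at base 287 gave 1.12, -0.41 and -0.71 in 2T-WT and -1.45, 4.45 and 3.46 in 2T-p190-B-/-. Both were lowest on 2T-p190-B-/- replicate 1 and highest on another array of that group, so the knockout arrays lay on both sides of the wild-type arrays. The probe at base 252 read -4.82, 2.41 and -4.11 in 2T-WT and -3.86, -3.66 and -3.53 in 2T-p190-B-/-, with 2T-WT replicate 2 far above the other 5 arrays.

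The defensin-related genes split. Defa-rs12 read log2 signals of 2.50, 1.14 and 4.53 in 2T-WT and 1.12, 1.48 and 1.27 in 2T-p190-B-/-, and Defa-rs7 read 0.37, 0.46 and 3.81 in 2T-WT and 0.33, 1.38 and 1.23 in 2T-p190-B-/-. Both were highest on 2T-WT replicate 3. Defa-rs10, which differs from the Defa-rs12 probe at 6 of 60 bases, read 1.72, 1.10 and 1.93 in 2T-WT and 1.67, 1.99 and 2.93 in 2T-p190-B-/- and did not show the high value on that array.

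Defa-rs4 was the only alpha defensin above background on all 3 arrays of one group and none of the other. It read log2 signals of -4.49, -6.26 and -4.47 in 2T-WT and -0.83, -2.65 and -2.11 in 2T-p190-B-/-. With no 2T-WT array above background its level there has only a bound. In the processed signal the 2T-p190-B-/- mean was at least 2.18-fold higher. This bound takes on each 2T-WT array the higher of the probe's own value and the lowest signal called above background. It holds only for this background subtraction and scaling. The direction turned with normexp background correction, another way of taking off background that is fitted to the whole array, where the means differed by -0.16 on the log2 scale in place of 3.21. On the whole array 0.743% of probes had this pattern. The Defa-rs10 probe, which shares 38 of 39 bases with that of Defa-rs4, was above background on all 6 arrays.

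The pseudogenes Defa-ps16 and Defa-ps17 were set apart by single arrays. Defa-ps16 read log2 signals of -3.04, 5.85 and -4.22 in 2T-WT and 1.73, -4.50 and -5.60 in 2T-p190-B-/-, and Defa-ps17 read -2.35, 6.11 and -4.47 in 2T-WT and 1.52, -1.70 and -6.10 in 2T-p190-B-/-. Both were highest on 2T-WT replicate 2, next highest on 2T-p190-B-/- replicate 1, and on the other 4 arrays only Defa-ps17 on 2T-p190-B-/- replicate 2 was above background. Their group means differed by -2.32 and -1.86 on the log2 scale, 2T-p190-B-/- minus 2T-WT, with 1 high array in each group, and that of Defa-ps17 was -0.91 within the shared slide. Another pseudogene, Defa-ps12, read -2.82, -3.46 and -1.33 in 2T-WT and -4.60, -3.72 and -4.64 in 2T-p190-B-/-, with groups that did not overlap although only 3 of the 6 values were above background.

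The remaining alpha defensins above background throughout went in no single direction. Defa1 at base 366 read log2 signals of 1.04, 1.55 and 1.43 in 2T-WT and 2.67, 2.00 and 0.86 in 2T-p190-B-/-. Its group means differed by 0.50, with groups that overlapped. Defa23 at base 329 read 0.22, 0.89 and 1.35 in 2T-WT and 1.22, 1.31 and -0.06 in 2T-p190-B-/-, with a difference of 0.00 between the group means. The other Defa-rs2 probe, at base 424, read -1.67, -0.62 and -2.04 in 2T-WT and -2.34, -2.47 and -2.32 in 2T-p190-B-/-, so that all 3 knockout values lay below all wild-type values, opposite in sign to the Defa-rs2 probe of the precursor group.

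Of the alpha-defensin probes not yet described, Defa-ps13, Defa4, Defa5 and Defa21 were above background on 0 to 2 arrays. Defa5, a Paneth cell cryptdin, was above background on 2T-WT replicate 1 and 2T-p190-B-/- replicate 1.

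Among the beta defensins the genes above background on every array came mostly from the cluster on chromosome 2. Of 14 probes of 11 genes at chr2:152285053-152448152, 7 were above background on all 6 arrays, against 3 of 23 on chromosome 8, 1 of 7 on chromosome 14, 1 of 4 on chromosome 1 and 1 of 2 on an unplaced part of chromosome 8. The chromosome 2 cluster is known for genes expressed in the male reproductive tract.

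Defb45, in this cluster, was read at base 207 with log2 signals of 5.07, 4.11 and 5.25 in 2T-WT and 3.09, 3.71 and 3.73 in 2T-p190-B-/-. All 3 knockout values lay below all wild-type values, and the means differed by -1.30 on the log2 scale (standard error 0.69). That difference was -0.59 with quantile normalization and -0.40 with normexp. Defb28 at base 150 read 1.30, 1.68 and -0.36 in 2T-WT and -0.75, -0.38 and -0.86 in 2T-p190-B-/-, again without overlap, although 2T-WT replicate 3 lay just above the highest knockout value.

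Most other chromosome 2 genes overlapped between the groups. Defb22, whose product coats sperm, read log2 signals of -0.92, -1.56 and 1.86 in 2T-WT and -1.53, -1.68 and -1.24 in 2T-p190-B-/-, with 1 high wild-type array. Defb23 read -0.20, -1.46 and -0.18 in 2T-WT and -2.72, -2.49 and 0.24 in 2T-p190-B-/-. Its knockout values included both the highest and the lowest of the 6. Defb25 read 3.94, 1.08 and 0.21 in 2T-WT and 0.45, -0.89 and 2.64 in 2T-p190-B-/-, and was highest on 2T-WT replicate 1. Defb29 read 1.22, -0.41 and -0.77 in 2T-WT and -0.14, -0.72 and 0.20 in 2T-p190-B-/-, with the 6 values crossing between the groups.

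On chromosome 8, Defb11 read log2 signals of 2.24, 2.24 and 1.94 in 2T-WT and 1.41, 0.65 and 0.74 in 2T-p190-B-/-. Its wild-type values lay close together and above all knockout values, and the means differed by -1.21 (standard error 0.66), or by -0.51 with normexp. Defb39 read 3.82, 1.98 and 2.01 in 2T-WT and 1.36, 3.36 and 1.07 in 2T-p190-B-/- and Defb9 read 0.50, -0.23 and -0.12 in 2T-WT and 0.61, -0.19 and 1.66 in 2T-p190-B-/-, both with overlap. Defb6, above background on 5 arrays, read -0.55, -0.97 and -0.07 in 2T-WT and -2.03, -2.86 and -1.49 in 2T-p190-B-/-, all knockout values below the wild-type values.

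Of the 3 members above background throughout elsewhere, Defb18 on chromosome 1 read log2 signals of -0.43, -0.54 and 0.80 in 2T-WT and -1.62, -1.94 and -0.96 in 2T-p190-B-/- and did not overlap between the groups. Defb47 on chromosome 14 read 0.79, 0.25 and 2.77 in 2T-WT and 2.19, 1.51 and 0.66 in 2T-p190-B-/-. Defb33, placed by the files on the unplaced part of chromosome 8, read -0.75, 0.89 and -0.01 in 2T-WT and -0.75, -0.02 and 0.64 in 2T-p190-B-/-. The last 2 overlapped, and their group means differed by 0.18 and -0.09.

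The largest differences among beta defensins were in probes that were not above background on every array. Defb43 was above background on all 3 knockout arrays and no wild-type array, with log2 signals of -3.98, -6.19 and -4.44 in 2T-WT and -3.04, -0.44 and -1.61 in 2T-p190-B-/-, and its 2T-p190-B-/- mean was at least 2.45-fold higher by the bound described for Defa-rs4. With normexp its means differed by -0.01 in place of 3.17. Defb46 read -2.82, -2.23 and -4.40 in 2T-WT and 0.15, 2.24 and -3.27 in 2T-p190-B-/-, where 2T-p190-B-/- replicate 3 lay below 2 wild-type arrays. Defb38 read -3.00, -1.80 and -0.10 in 2T-WT and -2.45 and -4.65 in 2T-p190-B-/-, after an outlier spot on 2T-p190-B-/- replicate 3 was left out of the fit.

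High values on 2T-WT replicate 2 alone recurred in other beta defensins near background. Defb10 read log2 signals of -4.72, 2.51 and -2.45 in 2T-WT and -4.55, -5.05 and -4.05 in 2T-p190-B-/-, and Defb37 read -4.78, 1.21 and -2.96 in 2T-WT and -7.11, -5.12 and -5.59 in 2T-p190-B-/-. Both were chosen after their values were seen, as probes with 1 array far above the rest. Defb2 had the same pattern, with 1.34 on 2T-WT replicate 2 and values from -4.69 to -2.87 on the other arrays. Several beta defensins with well described roles were at background. Defb1, a constitutive epithelial defensin, Defb4 and Defb14, the latter a ligand of the chemokine receptor Ccr6, were above background on no array, and Defb3, an inducible epithelial defensin, was above it on 2T-p190-B-/- replicate 1 alone, with its spot on replicate 2 left out as an outlier.

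The rest of the beta defensins are given by their range. Defb7, Defb20, Defb26, Defb35, Defb41 and Defb50 were above background on 3 to 5 arrays and overlapped between the groups, with differences from -0.66 (Defb20) to 1.43 (Defb7) on the log2 scale. Defb2, Defb19 and Defb48 were above background on 2 arrays, and Defb5 and Defb21 on none.

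Over the 44 members above background on 3 or more arrays, somewhat more alpha defensins were higher than lower in 2T-p190-B-/-, and more beta defensins were lower than higher. The median difference, 2T-p190-B-/- minus 2T-WT, was 0.50 on the log2 scale for 17 alpha-defensin probes (10 higher and 7 lower) and -0.24 for 27 beta-defensin probes (9 higher and 18 lower), beside -0.33 for all 25160 probes that passed the same filter. With this filter and all 6 arrays both class medians were smaller in size than the spread of single arrays. The median signal of a class on an array had an SD within groups of 0.55 for the alpha and 0.31 for the beta defensins. Such an SD is not the error of a difference between group means, so it cannot decide whether the groups differ. Without any filter the medians were 0.05, -0.35 and -0.55, and in probes above background on all 6 arrays they were 0.83, -1.01 and -0.44. A probe could pass the filter through 1 group alone, so these medians describe the probes that passed and are no test of the family.

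**Figure D3:**
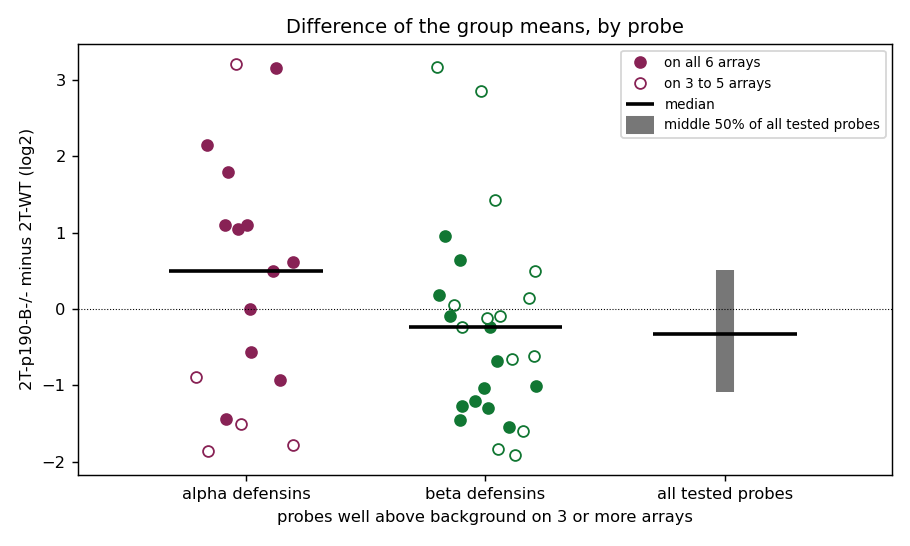
Difference of the group means, 2T-p190-B-/- minus 2T-WT in log2 units (vertical axis), for each alpha- and beta-defensin probe above background on 3 or more arrays, filled where it was above background on all 6, with the class medians as bars at 0.50 and -0.24. At the right, the grey bar spans the middle 50% of all 25160 probes that passed the filter, from -1.09 to 0.52, with their median at -0.33.

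The alpha-defensin median changed with how near-identical probes were counted and with 2 of the arrays. With the brightest probe of each group of near-identical probes in place of every probe the median became 0.00 for the alpha and -0.42 for the beta defensins, a setting that was added after the values were seen. Without 2T-p190-B-/- replicate 1 the alpha median was 0.09 and without replicate 3 it was 0.19, and leaving out any 1 wild-type array gave 0.35 to 0.57. The beta median became -0.48, -0.64 and -0.62 without 2T-WT replicates 1, 2 and 3 and -0.39, -0.24 and -0.43 without 2T-p190-B-/- replicates 1, 2 and 3. Within the slide that held 2 arrays of each group the medians were 0.32 for the alpha, -0.41 for the beta defensins and -0.47 for all probes.

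Of the 12 alpha-defensin probes above background on all 6 arrays, 6 had their highest value on 2T-p190-B-/- replicate 3, namely the 4 probes of the precursor group, Defa3 at base 145 and Defa-rs10. Over all 13751 such probes 14.1% were highest on that array. The 4 probes of the precursor group are linked by near-identical bases and are not independent. That array was also alone on its slide, so array and slide cannot be told apart. Of the 13 beta-defensin probes above background throughout, 11 (84.6%) were highest on a 2T-WT array, as 68.2% of all such probes were, and 2, Defb23 and Defb9, on 2T-p190-B-/- replicate 3.

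Groups that did not overlap were found among the members about as often as on the whole array. Of the 43 members with a value on each of the 6 arrays that passed the filter, 3 (6.98%) had all knockout above all wild-type values, which 4.52% of all probes did, namely Defa-rs4, Defa25 and Defb43. In the other direction there were 7 (16.3%), beside 11.6% of all probes, namely Defa-ps12, Defa-rs2 at base 424, Defb6, Defb11, Defb18, Defb28 at base 150 and Defb45 at base 207. In probes above background on all 6 arrays the whole-array shares were 3.28% and 14.0%, and the members were 1 of 25 (Defa25) and 5 of 25. Fewer arrays leave fewer values to overlap, in members and other probes alike. The count above was 6 of 43 (14.0%) without 2T-WT replicate 2, without 2T-p190-B-/- replicate 1 or without 2T-p190-B-/- replicate 3, where 2496, 1946 and 1880 of all 24873 probes had the pattern, the last 2 being 7.82% and 7.56%. Within the shared slide it was 7 (16.3%), with 12 below (27.9%), beside 12.7% and 33.3% of all probes.

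No probe of the whole array passed a Benjamini-Hochberg adjusted threshold of 0.05 in limma (0 of 25160, or 0.0%). There were 1654 at an unadjusted threshold of 0.05, and with the methods' t-test 1783 unadjusted and 0 adjusted.

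Near-identical probes tracked each other over the arrays in some groups and not in others. Over the 10 pairs at 80% identity or more, the correlation of log2 signal across the 6 arrays had a median of 0.67 and ran from 0.02 to 0.97, and over the 6 pairs at 90% or more the median was 0.46. Over the 6 near-identical pairs with both probes above background on all 6 arrays the median was 0.67. Pairs of other alpha-defensin probes that were above background on all 6 arrays had a median of -0.03 (58 pairs) and such beta-defensin pairs 0.09 (78 pairs). The 6 points of each pair are the same 6 arrays, so these values are a description.

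High correlations were found within the precursor group and in the pseudogene pair. Defa-ps1 and Defa-rs2, with 46 of 50 overlapping bases the same, correlated at 0.97, and Defa-ps1 and Defa25, with 41 of 45, at 0.88. Defa26 correlated at 0.73 with Defa-ps1 and at 0.61 with Defa-rs2, at 42 of 47 and 51 of 57 bases. The pseudogenes Defa-ps16 and Defa-ps17, with 49 of 54 in the alignment without gaps, correlated at 0.96. With each group's mean removed the first pair stayed at 0.96 and the pseudogene pair at 0.96. Defa23 at base 211 and Defa4, with 42 of 51 bases the same, correlated at 0.85, but at 0.02 with quantile normalization, and were above background on 2 arrays and on none.

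Other pairs of similar identity in the alignment without gaps did not track. Defa1 and Defa3, with 52 of 56 bases the same, correlated at 0.03, and the high Defa3 value of 2.41 on 2T-WT replicate 2 had no counterpart in Defa1, which read log2 signals of -3.39, -3.26 and -2.15 in 2T-WT and -3.87, -4.58 and -3.04 in 2T-p190-B-/-. Defb15 and Defb34, with 54 of 60 bases the same, correlated at 0.03. Defb15 read -0.80, -0.19 and -2.84 in 2T-WT and -1.44, -1.90 and -0.31 in 2T-p190-B-/- and Defb34 read -2.09, -2.98 and -4.23 in 2T-WT and -2.51, -1.27 and -4.03 in 2T-p190-B-/-, each with overlapping groups. Defa-rs10 and Defa-rs12, also at 54 of 60 bases, correlated at 0.02, or at 0.52 with group means removed, and their differences between groups were 0.61 and -1.44 on the log2 scale, or 1.13 and -0.68 with normexp.

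**Figure D4:**
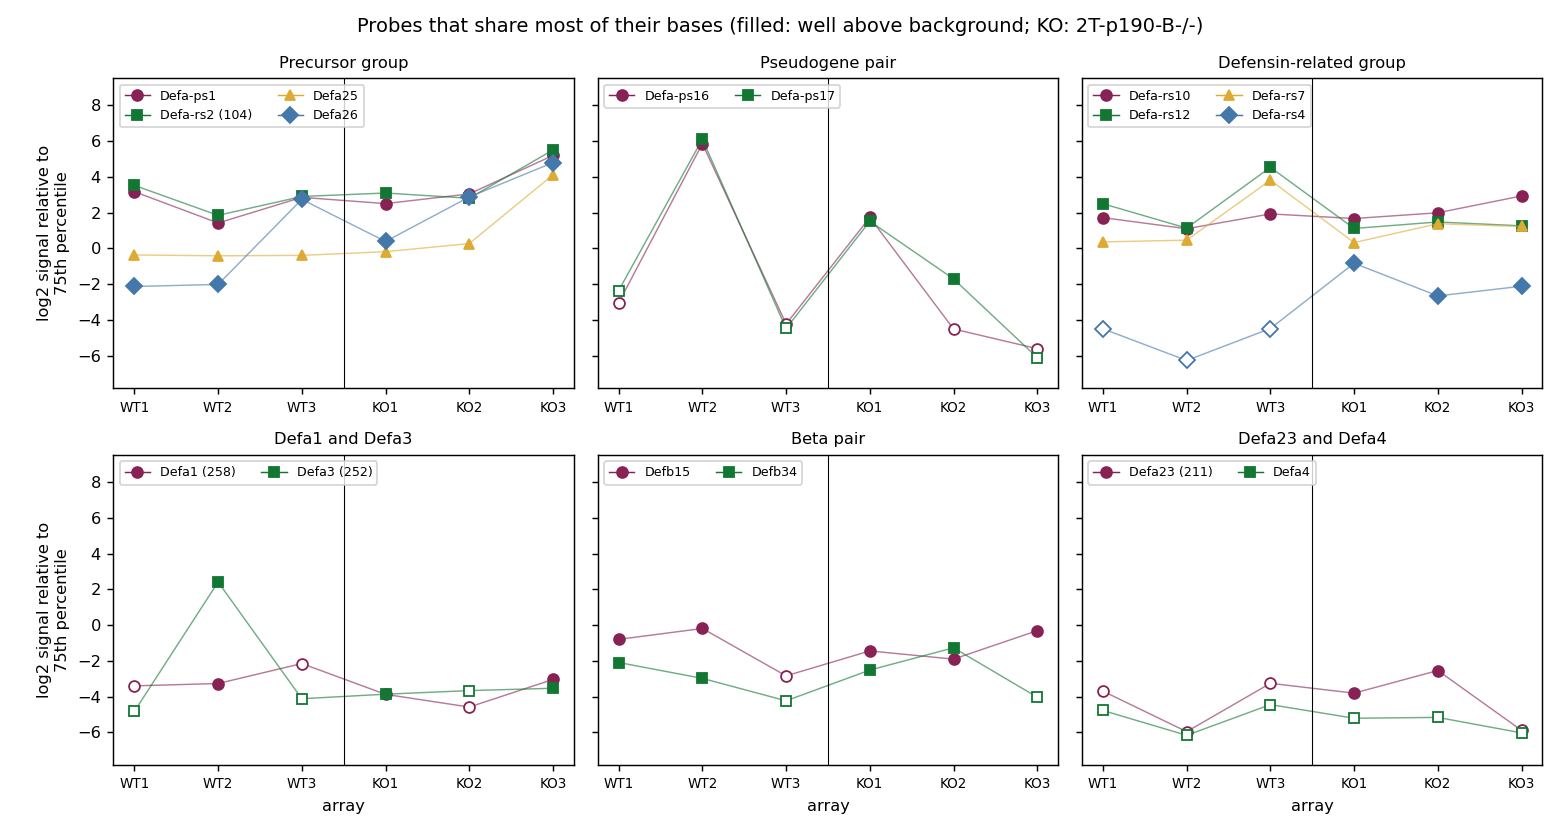
Log2 signal relative to the array's 75th percentile (vertical axis) on the 6 arrays (horizontal axis, WT for 2T-WT and KO for 2T-p190-B-/-) for groups of defensin probes that share most of their bases, filled where well above background, with lines only to guide the eye. The precursor group and the pseudogene pair move together, while Defa1 and Defa3 part on 2T-WT replicate 2 and Defa-rs4 is at background on the wild-type arrays, where the other 3 probes of its panel are above it.

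Probes whose gene names do not start with Defa, only some of them annotated as cryptdins, shared bases with members too. Some tracked the members and some did not. There were 14 such pairs with 11 other probes, and the correlation across the 6 arrays had a median of 0.62 and ran from -0.27 to 0.90. The highest was between LOC100046144 and Defa1 at base 366, at 52 of 53 bases, and the lowest between LOC100044290 and Defa3 at base 145, at 39 of 45. Gm15292, at 56 of 60 bases with Defa3 at base 252, correlated with it at -0.14. Of the 11 probes 7 were above background on all 6 arrays, and their differences between groups had a median of 0.35 and ran from 0.21 to 2.93, the highest in Gm14850, which shares 52 of 60 bases with Defa3 at base 145. Of the other 4, Gm15299, above background on 2 arrays, was the 1 with a lower 2T-p190-B-/- mean. These were found by their bases after the member values were known.

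Probes of the same gene often did not track each other. The 10 genes with more than 1 probe gave 12 pairs, whose correlation across the 6 arrays had a median of 0.07 and ran from -0.96 in Defb36 to 0.94 in Defb44-ps. Most pairs held a probe that was not above background on every array, which limits these values. Both probes were above background on all 6 arrays only in Defa3 at bases 145 and 287, which correlated at 0.78, and in Defa-rs2, at -0.54. Defb36 at base 195 read log2 signals of -2.19, 1.34 and -1.26 in 2T-WT and -0.53, 0.36 and 0.93 in 2T-p190-B-/-, whereas at base 272 it read 0.36, -3.63 and -0.88 in 2T-WT and -2.76, -3.12 and -3.76 in 2T-p190-B-/-. The 2 probes moved in opposite directions on the arrays, and their differences between groups were 0.96 and -1.83, or -0.13 and -0.69 within the shared slide.

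In Defb44-ps, a pseudogene, the probe at base 88 read log2 signals of -4.46, -5.28 and -4.48 in 2T-WT and -0.99, -5.09 and -4.47 in 2T-p190-B-/- and that at base 148 read -4.58, -6.03 and -4.37 in 2T-WT and -1.52, -5.00 and -3.71 in 2T-p190-B-/-. Both were highest on 2T-p190-B-/- replicate 1. The 2 probes of Defa1, at bases 258 and 366, had differences of -0.89 and 0.50, and those of Defa23, at bases 211 and 329, of 0.23 and 0.00.

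Detection also differed between probes of 1 gene, with no single order along the transcript. In Defa1 the probe at base 258 was above background on 3 arrays and that at base 366 on 6, and in Defa23 the probe at base 211 was on 2 and that at base 329 on 6. Defb45 at base 314 read log2 signals of -2.77, -3.35 and -3.60 in 2T-WT and -3.23, -4.45 and -4.26 in 2T-p190-B-/- and was above background on 2 arrays, against 6 for the probe at base 207. Defb28 at base 337 was above background on none and its probe at base 150 on 6. Defb30 at base 791 was above background on none, and at base 214 on 4 arrays with log2 signals of -0.67, -0.87 and -3.25 in 2T-WT and -5.47, 2.40 and -2.44 in 2T-p190-B-/-. Defb42 was above background on none at base 0 and on 2T-p190-B-/- replicate 1 alone at base 548. The starts of the Defb30 probes are counted in different annotated transcripts, as are those of the Defb42 probes, so they give no order along 1 transcript.

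**Figure D5:**
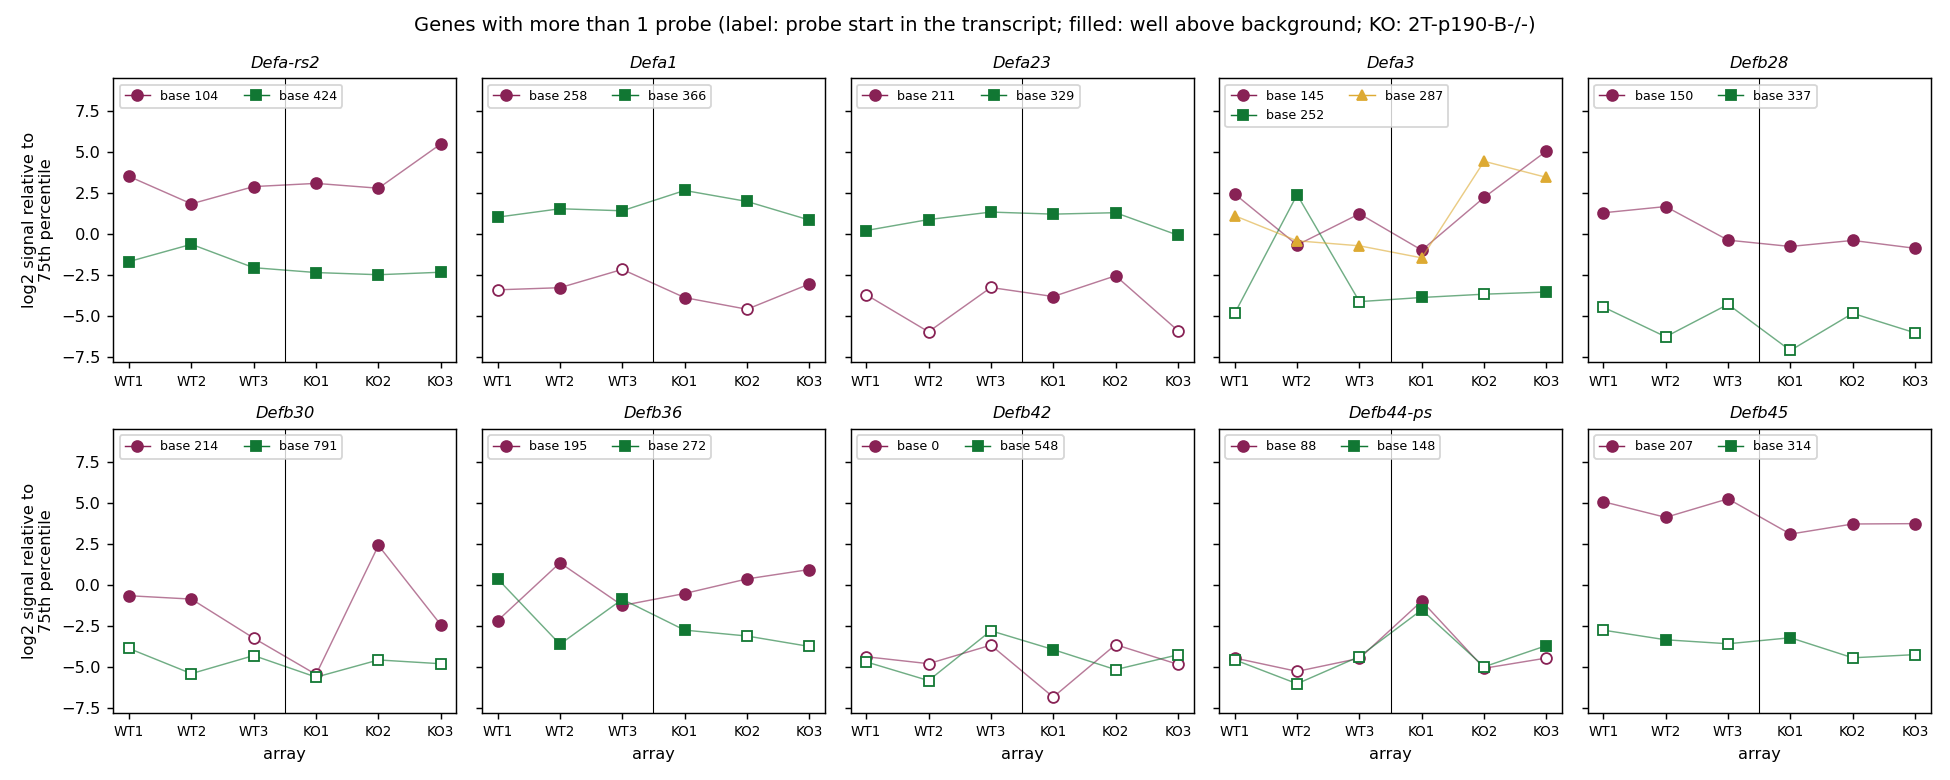
Log2 signal relative to the array's 75th percentile (vertical axis) on the 6 arrays (horizontal axis, WT for 2T-WT and KO for 2T-p190-B-/-) for the 10 defensin genes with more than 1 probe, each probe labelled by its start in its annotated transcript and filled where well above background. The annotated transcript differs between the probes of Defb30 and between those of Defb42. The probes of Defb36 mirror each other, those of Defb44-ps are high together on the first knockout array, and in Defb28 and Defb45 the probe at the earlier base is above background on all 6 arrays and the other on 0 and 2.

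Genes around the defensins were read from lists that were drawn up with the family known. Of 11 Paneth cell genes, all on the array, 5 were above background on every array (Ang4, Itln1, Clps, Habp2 and Guca2b) and 2 on none (Pla2g2a and Sox9), and 7 passed the filter, 4 higher and 3 lower in 2T-p190-B-/- with a median of 0.04. The mean log2 signal over the list ran from -2.48 to -2.15 in 2T-WT and from -3.09 to -2.39 in 2T-p190-B-/-. The Paneth cell lysozyme Lyz1 was above background on 3 arrays. The part of Paneth cell RNA in the alpha-defensin values was not tested.

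Mmp7, which activates mouse alpha-defensin precursors in Paneth cells, was above background on no 2T-WT and all 3 2T-p190-B-/- arrays. It read log2 signals of -3.95, -4.93 and -2.92 in 2T-WT and -3.91, -0.78 and -2.10 in 2T-p190-B-/-, with a 2T-p190-B-/- mean at least 1.65-fold higher by the same bound, although the measured values overlapped and with normexp the means differed by -0.49. Of the 9 genes of defensin processing and reception, 6 passed the filter, 3 higher and 3 lower, with a median of -0.71. Ccr6, a receptor for beta defensins, read 2.83, -1.62 and -0.51 in 2T-WT and -1.91, -1.91 and -1.61 in 2T-p190-B-/-. Of 13 genes for other antimicrobial proteins, 10 passed, 5 in each direction, with a median of -0.06.

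Of 11 epididymis genes 1 was above background throughout and 2 on no array. That 1 was Rnase10, with mean log2 signals of 7.33 in 2T-WT and 6.04 in 2T-p190-B-/-, in which all knockout values lay below all wild-type values. Of 12 neutrophil granule genes, 4 were above background on every array (Lcn2, Elane, Ctsg and Lyz2) and S100a9 on none, with a median difference of -0.27 over 10 genes. The mean log2 signal of the list ran from -1.94 to -1.49 in 2T-WT and from -1.96 to -1.33 in 2T-p190-B-/-. The part of such cells in the defensin values was not tested.

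The markers of the sorted cells were themselves seen unevenly. Of the genes of HSC sort and identity, Mecom, Ptprc and Ly6a, which encodes Sca-1, were above background on every array, Kit was on 5, Hlf had values on 2 arrays after outlier spots were left out, and Slamf1, which encodes CD150, and Procr were on none. In 5 of the list that passed the filter, 4 were higher and 1 lower in 2T-p190-B-/-, with a median of 0.74, and all knockout values of Mecom lay above all wild-type values. Of the genes that the sort selects against, Cd48, Itgam, Cd3e and Cd5 were above background on all 6 arrays through at least 1 probe each, and Ly6g has no probe under that name. The mean log2 signal of these 4 ran from 3.16 to 4.37 in 2T-WT and from 2.56 to 3.53 in 2T-p190-B-/-, carried by Itgam with a mean of 11.0 in 2T-WT and 9.32 in 2T-p190-B-/-. In 2T-p190-B-/- the level of 1 of the 4 was higher and of 3 lower, with a median difference of -0.98, and all knockout values of Cd5 lay below all wild-type values. The part of these cells in the defensin values was not tested.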

How the data were processed

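RNA of sorted LSK-SLAM cells was measured on 3 2T-WT and 3 2T-p190-B-/- Agilent arrays, 1 sample per array, with groups and replicate numbers as labelled. The authors deposited each array's Feature Extraction 10.5.1.1 output, in which the spot values used are intensities on a linear scale: a processed signal, from which background was subtracted, the mean and background brightness, and flags for outlier, saturated and well-above-background spots. They also deposited a table of processed signal per spot, which equals the scanner value divided by 1 number per array. Probe positions are in build mm9, and no columns of the authors' own comparisons were present in the files used.

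Control and outlier spots were left out, repeated spots averaged, and log2 processed signal was expressed relative to the 75th percentile of its array. Probes above background on at least 3 of 6 arrays (25160) were fitted with limma 3.58.1 in R 4.3.3 over all 6 arrays, after the fit had been tested on simulated data, with Benjamini-Hochberg adjustment. The number of arrays limits the precision. Member probes were aligned to each other without gaps, over overlaps of at least 40 bases, or at least 30 bases for the shorter overlap shown. A RefSeq gene table (GRCm38.p6) matched 61 of the 74 probes by accession and 4 by symbol, and names were kept as in the files. The 9 probes with no match were all of alpha defensins. One member and 1 list gene are not reported here by name, but stay in the counts.

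Values on each array were given for members above background on all 6 arrays, the 5 alpha- and 5 beta-defensin probes with the largest difference, members above background in all of one group and none of the other, genes with more than 1 probe, up to 6 pairs of probes at 90% identity or more, and Mmp7 and Arhgap5. For each list gene the brightest probe was used. The members and lists were chosen with earlier results of these data known. Alternatives were quantile normalization, normexp background correction, other filters and detection flags, the deposited table, slide and replicate blocks, each array left out, the methods' t-test, and 1 probe per gene or per near-identical group.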

Additional observations from a re-analysis of the deposited data

How the results depend on the processing

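The count of probes called by limma stayed at 0 under all 15 alternatives, and the deposited table and the replicate block left both medians at 0.50 and -0.24. Deviations of same-numbered arrays correlated at 0.009, 0.02 and 0.09, and those of differently numbered arrays at -0.08 to 0.07. With so few arrays per group these values cannot show whether the replicate numbers pair the arrays. With the replicate block 1871 probes had an unadjusted p under 0.05 in limma.

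For alpha defensins the median difference was 0.00 with 1 probe per near-identical group and otherwise above 0, from 0.05 without a filter and 0.16 with normexp to 0.83 in probes above background on all 6 arrays, and from 0.09 to 0.57 with 1 array left out. For beta defensins it was -0.18 with quantile normalization, -0.51 with normexp, -1.01 in probes above background on all 6 arrays and -0.64 to -0.24 with 1 array left out. Quantile normalization moved the median of all probes from -0.33 to -0.11 and normexp to -0.47.

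With the less strict flag for a significant positive signal, 43 beta-defensin probes were above background on 3 or more arrays in place of 27. Members with all knockout above all wild-type values numbered 1 in probes above background on all 6 arrays, 7 within the shared slide and 3 to 6 with 1 array left out. Those below numbered 3 with quantile normalization, 10 with normexp, 12 within the shared slide and 7 to 10 with 1 array left out. The median correlation of near-identical pairs was 0.52 with quantile normalization and 0.47 to 0.83 with 1 array left out. Of 37 named differences, 5 changed sign with normexp (Defa-rs4, Defb15, Defb34, Defb39 and Defb43), 5 within the shared slide (Defb15, Defb29, Defb30, Defb36 at base 195 and Defb39) and 1 with quantile normalization (Defb30). The causes were not tested. Dim spots limit all of these values, since only 25 of 74 members were above background on every array.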
